A study of Mus musculus with 6 samples.

Results

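The genes described here belong to 1 module, 44 genes of protein folding in the endoplasmic reticulum (ER), the unfolded protein response (UPR) and ER-associated degradation (ERAD), out of 27179 genes in the deposited count table. A gene was a member when its symbol in the table was on the module's list, whatever its counts. Of the 44, 42 were found under the listed symbol, and the genes listed as Ero1l and Ero1lb stand in the table under their newer symbols Ero1a and Ero1b. They were arranged by role as 5 stress sensors and transcription factors, 14 chaperones and lectins, 7 disulfide enzymes, 12 ERAD genes and 6 genes of translocation and export.

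The RNA sequenced was that of mESCs, the pluripotent stem cells derived from early mouse embryos, grown on gelatin with serum and the cytokine LIF. All cells expressed Tfe3-ERT2, the transcription factor Tfe3 fused to an estrogen receptor domain that responds to tamoxifen, so the controls carried the fusion too. The 3 libraries of the treated group came from cells given 4-hydroxytamoxifen (4OHT) at 1 µg/mL for 48 h, which moves the fusion into the nucleus, and the 3 control libraries from cells given its ethanol vehicle (EtOH). Since all 6 libraries carried the fusion, an effect of 4OHT itself and one of the fusion cannot be told apart. Nothing in the labels tells separate cultures from repeated libraries of 1 culture, and the spread behind every p-value is that of these 3 libraries per group, which may be technical.

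Proteins of the secretory pathway enter the ER through the SEC61 channel, fold there with the help of chaperones, receive disulfide bonds from the PDI family and leave in coated vesicles. When unfolded proteins build up, the sensors IRE1, ATF6 and PERK start the UPR: IRE1 splices the mRNA of XBP1 into that of an active factor, ATF6 is cut by Golgi proteases and enters the nucleus, and both raise genes of chaperones and of ERAD, the route by which misfolded proteins are pulled back into the cytosol and degraded. Hspa5, which encodes the chaperone BiP, and Dnajb9 are among the genes commonly read as signs of an active UPR.

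The ER stress response element (ERSE) is the promoter sequence through which ATF6 and XBP1, together with the CCAAT-binding factor NF-Y, are known to raise ER chaperone genes. It consists of CCAAT and CCACG separated by 9 bases. It was searched on both strands in the 250 bases before each start listed in the RefSeq promoter table of GRCm38.p6. That table held 36 of the 44 members. Some of its starts lie inside the gene as placed by RefSeq, as for Edem1 and for a second window of Derl2. An ERSE was found for 10 of the 36 (27.8%) and in 37 of all 32851 windows (0.113%), and its 11 copies in the members lay between 26 and 212 bases before the start, 6 on the strand of the gene and 5 on the other. The ERSE of 5 members on which the results turn are shown with 5 bases on either side, read 5′ to 3′ along the strand that holds CCAAT, with the 2 conserved parts in capitals. The site of Herpud1 is of another form, ERSE-II, and its conserved letters are in capitals.
Hspa5 (chr2:34772020-34772048, + strand): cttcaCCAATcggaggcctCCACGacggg
Hsp90b1 (chr10:86705633-86705661, - strand): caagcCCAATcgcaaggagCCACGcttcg
Hsp90b1, the other copy (chr10:86705528-86705556, + strand): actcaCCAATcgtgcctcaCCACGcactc
Calr (chr8:84847070-84847098, + strand): atgggCCAATgagggtcgaCCACGcgttg
Canx (chr11:50325795-50325823, - strand): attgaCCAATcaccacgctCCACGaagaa
Pdia6 (chr12:17266486-17266514, + strand): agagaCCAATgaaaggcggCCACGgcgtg
Herpud1 (chr8:94386372-94386392, + strand): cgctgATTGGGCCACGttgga

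After 4OHT the module moved little and unevenly. All 44 members had enough counts to be tested, with between 126 and 31281 counts over the 6 libraries. By edgeR's quasi-likelihood test at an adjusted p under 0.05, 12 members were higher in 4OHT (27.3%), 3 were lower (6.82%) and 29 did not pass. Over all 12345 tested genes, 42.0% passed, 21.4% higher and 20.6% lower. With upper quartile scaling in place of TMM scaling the members split into 12 higher and 6 lower, and with DESeq2 into 7 higher and 2 lower. Over all genes, 2643 higher and 2546 lower became 2319 and 2958 with upper quartile scaling, and 1804 and 1597 with DESeq2. Without the EtOH library 2, the count of lower members was 5, and 2326 of all genes were lower.

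The sizes were small. The 12 that rose were 1.14-fold to 1.32-fold higher and the 3 that fell were 1.08-fold to 1.14-fold lower, and no member reached 1.5-fold, which 12.2% of all tested genes did while passing the test. The median log2 fold change of the 44 was 0.07, with a range from -0.30 to 0.40, beside a median of -0.0024 over all tested genes. The libraries of the groups did not overlap for 18 members (40.9%), 13 with 4OHT above and 5 with 4OHT below, and for 48.8% of all tested genes. Among the 29 members that did not pass, the 95% interval of the fold change lay within 1.5-fold in either direction for 25, the exceptions being Ern1, Creb3l2, Ero1b and Derl3, and within 2-fold for all 29. Within 1.32-fold, the largest change called among the members, the interval lay for 22, and it reached past that size for 7, which were those 4 with Sil1, Derl1 and Herpud1.

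**Figure D1:**
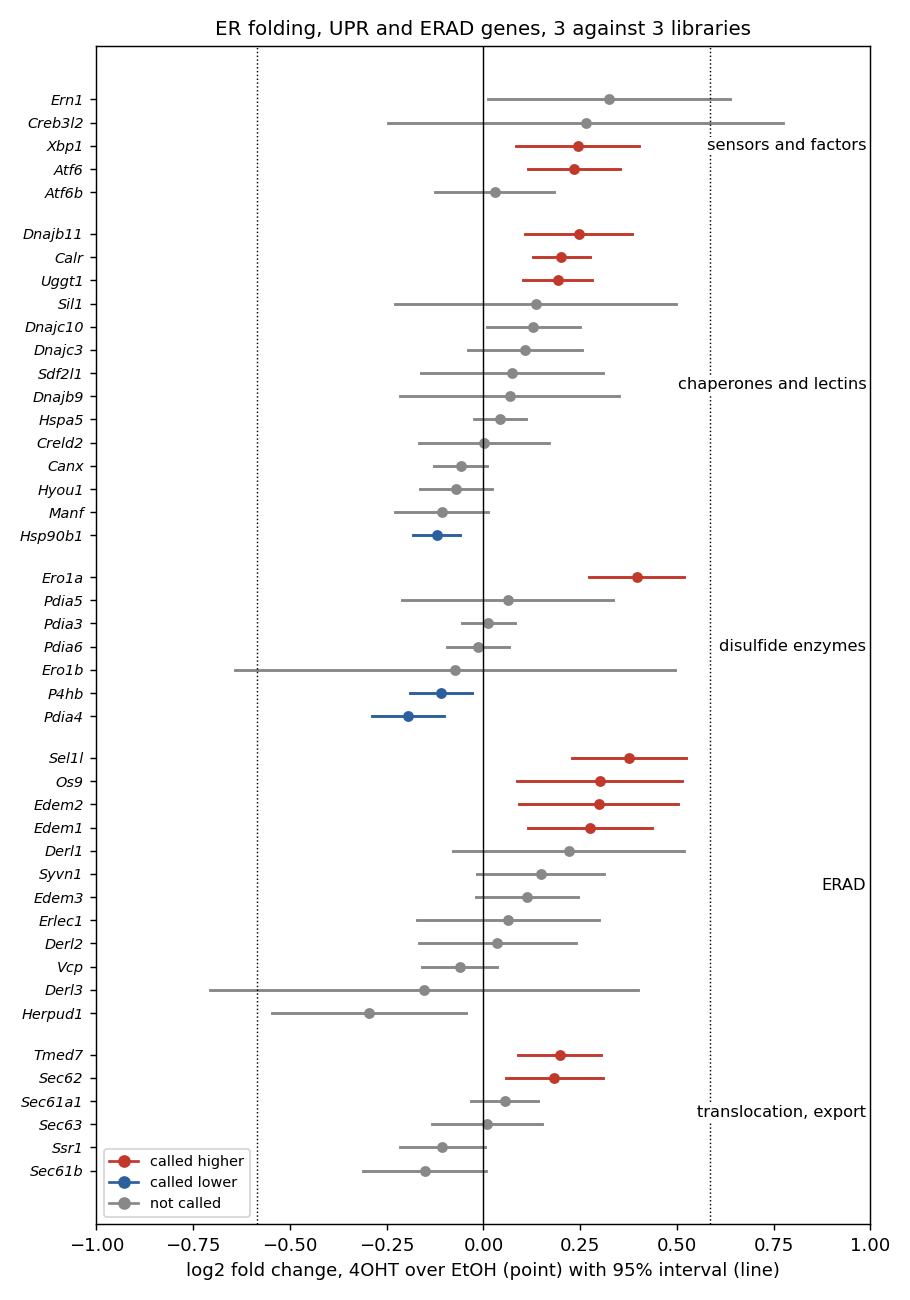
Log2 fold change of each of the 44 members, 4OHT over EtOH (point), with its 95% interval (line), from edgeR on 3 against 3 libraries; red marks members called higher, blue lower and grey not called, and the dotted lines stand at 1.5-fold in either direction. All 44 points lie between the dotted lines, from -0.30 for Herpud1 to 0.40 for Ero1a.

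Levels of different genes were compared as CPM, the counts divided by the scaled library size, per kilobase (kb) of gene length in EtOH. The 4 highest members were Hsp90b1 at 394 ± 9.40 (SD, n = 3), Hspa5 at 251.1 ± 5.003, Calr at 221 ± 12.5 and Pdia3 at 213 ± 5.35. Calr and Pdia3 differed by less than their spread. The lowest were Ern1 at 3.08 ± 0.345, Creb3l2 at 1.43 ± 0.0559 and Ero1b at 1.02 ± 0.317. By role, the median level per kb was 78.0 for the disulfide enzymes, 30.1 for the chaperones and lectins, 28.4 for translocation and export, 12.9 for the sensors and factors and 8.98 for ERAD, beside 11.3 for all tested genes.

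The 3 members that fell were among the abundant ones. Of the 15 members with a mean of at least 100 CPM in EtOH, 3 were called higher and 3 lower (40.0% called). Of all 2439 tested genes at that level 64.1% were called, 565 higher and 998 lower. Of the 29 members below 100 CPM, 9 were called higher and 0 lower (31.0%). Of the 9906 tested genes there 36.6% were called, 2078 higher and 1548 lower. The calls over all tested genes thus also leaned lower among abundant genes and higher among the rest. DESeq2 also called no member of that level lower, and Herpud1 was the only one of them below EtOH at an unadjusted p under 0.05. The summed CPM of all 44 members was 6582, 6484 and 6574 in EtOH and 6621, 6607 and 6696 in 4OHT, so every 4OHT library stood above every EtOH library, by margins of the size seen between libraries of 1 group.

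**Figure D2:**
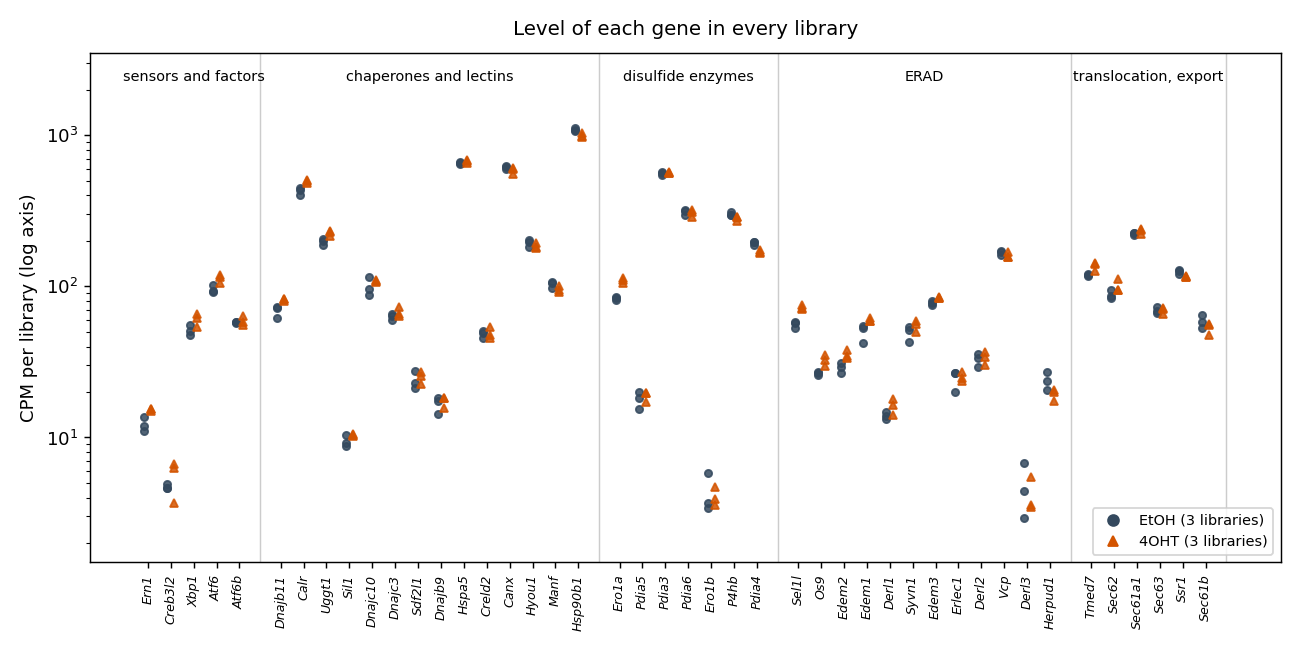
CPM of each of the 44 members in every library on a log axis, grouped by role, with circles for the 3 EtOH and triangles for the 3 4OHT libraries. Circles and triangles of most genes lie on or beside each other; Ero1a and Sel1l show triangles above all circles, and Hsp90b1 and Pdia4 triangles below them.

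Among the sensors and factors, Atf6 and Xbp1 rose (2 of 5, median log2 fold change 0.24), and Ern1, Creb3l2 and Atf6b did not pass. This share of 40.0%, all higher, stands beside 42.0% of all tested genes called, 21.4% higher and 20.6% lower. Atf6, the membrane-bound sensor that is cut to release a transcription factor (Entrez Gene 226641, chr1:170704457-170868585), stood at 103, 93.3 and 92.0 CPM in EtOH and 105, 115 and 118 CPM in 4OHT. All 3 of its 4OHT libraries were above the EtOH libraries, the lowest by little (log2 fold change 0.23, SE 0.06, edgeR adjusted p = 0.000547). Xbp1, the factor made active by IRE1 (Entrez Gene 22433, chr11:5520641-5525993), stood at 55.2, 48.0 and 51.0 CPM in EtOH and 53.7, 62.0 and 65.9 CPM in 4OHT. One 4OHT library lay within the EtOH range, so the groups overlapped (log2 fold change 0.24, SE 0.08, edgeR adjusted p = 0.00857). Its call was lost without the EtOH library 2 (edgeR adjusted p = 0.068), without the 4OHT library 3 (0.121) and with DESeq2 (0.125). Counts per gene do not show whether the Xbp1 mRNA was spliced, nor do they show cutting of the ATF6 protein.

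Ern1, the gene of IRE1 (Entrez Gene 78943, chr11:106397620-106487796), had 11.04, 11.9 and 13.7 CPM in EtOH and 15.4, 15.5 and 14.95 CPM in 4OHT. Its 4OHT libraries were all higher, but at this depth the difference did not pass (log2 fold change 0.33, 95% interval 0.01 to 0.64, edgeR adjusted p = 0.089). Creb3l2, a membrane-bound factor related to ATF6, had 4.62, 4.96 and 4.66 CPM in EtOH and 3.68, 6.29 and 6.70 CPM in 4OHT, so 1 library of 4OHT was below and 2 were above all EtOH libraries (edgeR adjusted p = 0.437). Atf6b, a relative of Atf6, had 58.4, 57.9 and 57.4 CPM in EtOH and 64.0, 55.9 and 58.2 CPM in 4OHT, with a 95% interval of the log2 fold change from -0.12 to 0.18. The summed CPM of the 5 sensors and factors was 232, 216 and 219 in EtOH and 241, 255 and 264 in 4OHT. Atf6 made up the largest part of that sum in each library.

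The main ER chaperones did not move together. Of 14 chaperones and lectins, Calr, Uggt1 and Dnajb11 rose, Hsp90b1 fell and 10 did not pass (median log2 fold change 0.07). With 28.6% called, the group stood below the 42.0% of all tested genes. Hspa5, the BiP gene (Entrez Gene 14828, chr2:34772090-34776529), had 668, 661 and 642 CPM in EtOH and 690.2, 660.3 and 680.1 CPM in 4OHT. The libraries overlapped, and the 95% interval of its log2 fold change ran from -0.02 to 0.11 (edgeR adjusted p = 0.324). Hsp90b1, the ER form of HSP90 known as GRP94 (Entrez Gene 22027, chr10:86690841-86705444), had 1077, 1068 and 1117 CPM in EtOH and 998, 971 and 1030 CPM in 4OHT. Its 3 4OHT libraries were all below the EtOH libraries (1.09-fold lower, log2 fold change -0.12, SE 0.03, edgeR adjusted p = 0.000578). Both genes have an ERSE in the window before their start, as printed earlier, and Hsp90b1 has 2. Hsp90b1 shares 15.7% of its exon bases with other gene models, the largest share among the members, on both strands.

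Calr encodes calreticulin, a soluble lectin chaperone of glycoproteins (Entrez Gene 12317, chr8:84842088-84846931), and had 448, 402 and 437 CPM in EtOH against 480.1, 503 and 497 CPM in 4OHT. All 4OHT libraries were higher than all EtOH libraries (log2 fold change 0.20, SE 0.04, edgeR adjusted p = 1.21e-06). Canx encodes calnexin, the membrane-bound partner of calreticulin, and had 623, 614 and 596 CPM in EtOH against 598, 556 and 606 CPM in 4OHT. Those groups overlapped (log2 fold change -0.06, edgeR adjusted p = 0.173), and with upper quartile scaling Canx was called lower (log2 fold change -0.09, edgeR adjusted p = 0.0225). Uggt1, which reglucosylates misfolded glycoproteins so that the lectins bind them again (Entrez Gene 320011, chr1:36140028-36244320), had 201, 188 and 206 CPM in EtOH against 217, 233 and 229 CPM in 4OHT. Its groups did not overlap (log2 fold change 0.19, SE 0.05, edgeR adjusted p = 0.000144).

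J-domain proteins pass clients to BiP and drive its ATPase. Dnajb11 (Entrez Gene 67838, chr16:22857845-22879634) had 73.3, 62.2 and 71.6 CPM in EtOH and 83.1, 80.5 and 82.4 CPM in 4OHT, with all 4OHT libraries higher (log2 fold change 0.25, SE 0.07, edgeR adjusted p = 0.00193). Its call was lost without the low EtOH library 2 (edgeR adjusted p = 0.0573). Dnajb9, which holds IRE1 inactive and assists ERAD, had 17.5, 14.2 and 18.2 CPM in EtOH and 18.2, 15.6 and 18.4 CPM in 4OHT. These groups overlapped, with a 95% interval of the log2 fold change from -0.21 to 0.35 (edgeR adjusted p = 0.742). Dnajc3, which also restrains the PERK pathway, had a log2 fold change of 0.11 (edgeR adjusted p = 0.253). Dnajc10, a J protein with disulfide reductase activity, had a log2 fold change of 0.13 (edgeR adjusted p = 0.0793), and without the EtOH library 2, its highest, it was called higher (log2 fold change 0.24, adjusted p = 0.00183). The other members of the group had log2 fold changes of 0.13 for the nucleotide exchange factor Sil1, 0.07 for Sdf2l1, 0.00 for Creld2, -0.07 for Hyou1, a large relative of BiP, and -0.11 for the secreted protein gene Manf. None of these 5 passed, with edgeR adjusted p-values between 0.150 and 0.985. The summed CPM of the 14 was 3645, 3570 and 3614 in EtOH and 3617, 3568 and 3683 in 4OHT.

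Of the 7 disulfide enzymes, Ero1a rose, Pdia4 and P4hb fell and 4 did not pass (median log2 fold change -0.01). The calls made up 42.9% of the group, beside 42.0% of all tested genes. Ero1a, the oxidase that recharges protein disulfide isomerases (Entrez Gene 50527, chr14:45283087-45318572), had the largest rise of the module. It stood at 81.1, 84.1 and 85.4 CPM in EtOH and at 114, 105 and 111 CPM in 4OHT. The distance between the groups was several times the spread within either (1.32-fold, log2 fold change 0.40, SE 0.06, edgeR adjusted p = 9.52e-09). Its relative Ero1b was near the lower end of the counts, with 3.41, 5.86 and 3.68 CPM in EtOH and 3.89, 3.60 and 4.67 CPM in 4OHT (edgeR adjusted p = 0.867). Its 95% interval reached past 1.5-fold in the direction of a fall.

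Pdia4, an isomerase also known as ERp72 (Entrez Gene 12304, chr6:47796141-47813512), had 196, 196 and 189 CPM in EtOH and 173, 168 and 168 CPM in 4OHT. All 4OHT libraries were lower (1.14-fold lower, log2 fold change -0.19, SE 0.05, edgeR adjusted p = 0.00026). P4hb, the gene of PDI itself (Entrez Gene 18453, chr11:120560298-120573253), had 299.1, 299.0 and 313 CPM in EtOH and 286, 287 and 272 CPM in 4OHT. It was also lower in each 4OHT library (1.08-fold lower, log2 fold change -0.11, SE 0.04, edgeR adjusted p = 0.0225). This call was lost without the EtOH library 3 (edgeR adjusted p = 0.128), without the 4OHT library 3 (0.16), with no filter on low counts (0.057) and with DESeq2 (0.0969). Pdia3, the isomerase that works with calnexin and calreticulin, had 574, 546 and 566 CPM in EtOH and 567, 564 and 570 CPM in 4OHT (a log2 fold change of 0.01, edgeR adjusted p = 0.802). Pdia6 had a log2 fold change of -0.01 (edgeR adjusted p = 0.818) and Pdia5 of 0.06 (0.754).

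In ERAD, Sel1l, Os9, Edem2 and Edem1 rose, 0 of the 12 were called lower by edgeR, and 8 did not pass (median log2 fold change 0.13). Called were thus 33.3%, all higher, beside 42.0% of all tested genes, 21.4% higher and 20.6% lower. Lower at an unadjusted p under 0.05 was Herpud1 alone. Sel1l encodes the membrane protein that holds the HRD1 ubiquitin ligase complex together (Entrez Gene 20338, chr12:91806043-91849157), and had 58.0, 53.2 and 56.9 CPM in EtOH and 71.8, 75.9 and 70.7 CPM in 4OHT. Its 4OHT libraries were all higher and lay close together (1.30-fold, log2 fold change 0.38, SE 0.08, edgeR adjusted p = 6.84e-06). Os9, a lectin that brings trimmed glycoproteins to that complex (Entrez Gene 216440, chr10:127094259-127121160), had 27.1, 26.8 and 25.8 CPM in EtOH and 29.6, 32.7 and 35.2 CPM in 4OHT. Its groups did not overlap (1.23-fold, log2 fold change 0.30, SE 0.11, edgeR adjusted p = 0.0172).

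Proteins of the EDEM family trim mannose from glycoproteins and so mark them for ERAD. Edem2 (Entrez Gene 108687, chr2:155701673-155729475) had 26.7, 29.1 and 30.9 CPM in EtOH and 38.1, 33.6 and 34.9 CPM in 4OHT (1.23-fold, log2 fold change 0.30, SE 0.10, edgeR adjusted p = 0.0137). Edem1 (Entrez Gene 192193, chr6:108824045-108859356) had 42.0, 53.4 and 54.9 CPM in EtOH and 59.3, 62.0 and 59.3 CPM in 4OHT (1.21-fold, log2 fold change 0.28, SE 0.08, edgeR adjusted p = 0.00299). Both had all 4OHT libraries above all EtOH libraries, and for Edem1 the EtOH library 1 stood well below the other two. Edem3 had 77.3, 80.2 and 75.8 CPM in EtOH and 84.2, 84.5 and 83.8 CPM in 4OHT. Its groups did not overlap either, but it did not pass (log2 fold change 0.11, edgeR adjusted p = 0.172).

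Of the 4 ERAD calls, that of Sel1l held in all 14 alternatives. Os9 was lost without the EtOH library 3 (edgeR adjusted p = 0.0567) and without the 4OHT library 3 (0.13). Edem2 was lost without the EtOH library 1 (edgeR adjusted p = 0.108) and without the 4OHT library 1 (0.0668). Edem1 was lost without the EtOH library 1 (edgeR adjusted p = 0.185). DESeq2 called none of these 3, with adjusted p-values of 0.152 for Os9, 0.127 for Edem2 and 0.0784 for Edem1.

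Herpud1, an ER membrane protein gene with a short-lived product that recruits parts of the HRD1 complex (Entrez Gene 64209, chr8:94386429-94395371), had the lowest log2 fold change of the module. Its counts were 27.1, 20.7 and 23.8 CPM in EtOH and 17.3, 20.1 and 20.7 CPM in 4OHT. The 4OHT libraries were all at or below the lowest EtOH library, by a margin of less than 0.1 CPM for the closest pair, and the difference lay at the threshold (log2 fold change -0.30, 95% interval -0.55 to -0.04, edgeR adjusted p = 0.0504). Herpud1 was called lower with DESeq2 size factors (edgeR adjusted p = 0.0475), with upper quartile factors (0.0266), without the EtOH library 2 (0.0184) and, just under the threshold, without the 4OHT library 3 (0.05).

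The ligase of the HRD1 complex, Syvn1, had 51.4, 43.0 and 54.0 CPM in EtOH and 59.1, 56.1 and 50.3 CPM in 4OHT. The groups overlapped (log2 fold change 0.15, edgeR adjusted p = 0.145), and it was called higher without the 4OHT library 3 (log2 fold change 0.22, adjusted p = 0.0485). Vcp, the cytosolic ATPase that pulls proteins out of the membrane, had 168, 173 and 161 CPM in EtOH and 156, 169 and 156 CPM in 4OHT (a log2 fold change of -0.06, edgeR adjusted p = 0.334). The derlins, which form the channel region for the way out, gave log2 fold changes of 0.22 for Derl1, 0.04 for Derl2 and -0.15 for Derl3, and the lectin gene Erlec1 gave 0.06. None of these 4 passed, with edgeR adjusted p-values between 0.250 and 0.814. The summed CPM of the 12 ERAD genes was 544, 562 and 561 in EtOH and 591, 620 and 587 in 4OHT, with all 4OHT libraries above the EtOH libraries.

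Among the 6 genes of translocation and export, Tmed7 and Sec62 rose and none was called lower by edgeR or DESeq2, nor at an unadjusted p under 0.05 (median log2 fold change 0.03). The share called by edgeR was 33.3%, beside 42.0% of all tested genes, 21.4% higher and 20.6% lower. Tmed7, a cargo receptor of the p24 family in vesicles between the ER and the Golgi, had 121, 119 and 118 CPM in EtOH and 142, 127 and 142 CPM in 4OHT. The 4OHT libraries were all higher (log2 fold change 0.20, SE 0.05, edgeR adjusted p = 0.00135), and Tmed7 shares 9.48% of its exon bases with Ticam2 on the same strand. Sec62, a partner of the SEC61 channel and also a receptor for autophagy of the ER (Entrez Gene 69276, chr3:30792876-30821263), had 86.5, 94.2 and 83.4 CPM in EtOH and 112, 95.3 and 94.98 CPM in 4OHT. The groups were separated by less than 1 CPM, and 1 of the 4OHT libraries stood well above the rest (log2 fold change 0.18, SE 0.06, edgeR adjusted p = 0.0133). Of the exon bases of Sec62, 11.7% overlap a gene on the opposite strand. Its call was lost without the EtOH library 1 (edgeR adjusted p = 0.0623), the EtOH library 3 (0.0908) or the 4OHT library 1 (0.209), and with DESeq2 (0.131).

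The other 4 members of this group did not pass. Sec61a1, the pore subunit, had 220, 224 and 226 CPM in EtOH and 222, 239 and 235 CPM in 4OHT (a log2 fold change of 0.06, edgeR adjusted p = 0.323). Sec61b, a small subunit, had a log2 fold change of -0.15 (edgeR adjusted p = 0.123), and was called lower without the EtOH library 2 (log2 fold change -0.22, adjusted p = 0.0411). Ssr1, a subunit of the translocon-associated complex TRAP, had 121, 126 and 128 CPM in EtOH and 118, 115 and 115 CPM in 4OHT. All of its 4OHT libraries were below the EtOH libraries without passing (log2 fold change -0.11, edgeR adjusted p = 0.114), and with upper quartile scaling it was called lower (adjusted p = 0.031). Sec63, the J protein of the channel, had a log2 fold change of 0.01 (edgeR adjusted p = 0.936).

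Of the 15 calls, 8 were the same in all 14 alternatives: Atf6, Calr, Uggt1, Ero1a, Sel1l and Tmed7 higher, and Hsp90b1 and Pdia4 lower.

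**Figure D3:**
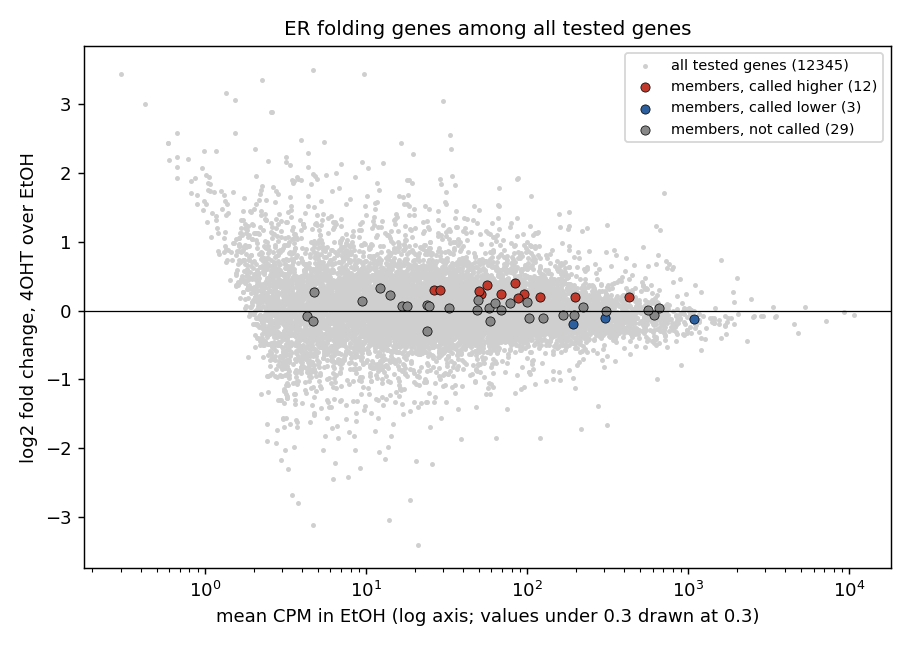
Log2 fold change, 4OHT over EtOH, against mean CPM in EtOH (log axis) for all 12345 tested genes (light grey) with the 44 members on top, red for called higher, blue for lower and dark grey for not called. The members lie between -0.30 and 0.40 in a cloud that reaches from -3.40 to 3.49.

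Most members with an ERSE in the promoter window did not pass. Of the 11 members with an ERSE or ERSE-II in their window, Calr was called higher, Hsp90b1 lower and 9 were not called, with log2 fold changes from -0.30 to 0.20 and a median of -0.01. Those 11 were Calr, Dnajc3, Hspa5, Creld2, Canx, Hsp90b1, Pdia6, Ero1b, Syvn1, Derl3 and Herpud1. Of the 25 members with a window and neither element, 9 were called higher, 2 lower and 14 not called (median 0.11). The difference between these sets was not tested. Among all 16 tested genes with an ERSE in their window, 10 of them members, 2 were higher, 2 lower and 12 not called (median -0.01), where 42.0% of all tested genes were called.

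The MiT/TFE family to which Tfe3 belongs is known to bind E-box sequences, and the E-box CACGTG was searched in the same windows on both strands. It was found for 6 of the 36 members (16.7%), Atf6b, Calr, Derl3, Dnajb9, Sec62 and Ssr1, and in 6.02% of all windows or 8.50% of those of tested genes. The longer form GTCACGTG, which contains the E-box, was found for Atf6b, Calr and Sec62 (8.33%). It was in 1.85% of all windows or 3.42% of those of tested genes. Of the 6 members with an E-box, Calr and Sec62 were called higher and 4 were not called. Of the 30 without it, 8 were called higher, 3 lower and 19 not called. Over all tested genes 21.4% were higher and 20.6% lower, and a difference between members with and without an E-box was not tested. The element TGACGTGG, known as the UPR element, was found for Vcp alone among the members and in 0.563% of all windows. A match is a description of letters in the window, and the absence of one says nothing about sequence farther away.

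The other genes of the ER were counted from 8 lists, of which 167 of 170 genes were tested. Together 34 were higher and 25 lower (35.3% called, median log2 fold change 0.04). Over all tested genes 42.0% were called, 21.4% higher and 20.6% lower, and the counts by list below stand beside these shares. Of the 167, 9 were called with at least 1.5-fold, which no member was, beside 12.2% of all tested genes. Genes of these lists named beyond the rule for named genes were chosen after their values were seen. They are Ppp1r15b, Ost4, Tmem258, Lman1, Ganab, Rnf139, Rtn3, Sec13, Creb3, Rtcb, Mbtps2, Nfya and Nfyc.

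The PERK branch, the sensor arm not among the members, was mixed: 2 of 9 genes were higher and 4 lower. Ddit3, the gene of the stress factor CHOP, rose from 11.04, 13.8 and 12.5 CPM in EtOH to 31.2, 25.9 and 29.1 CPM in 4OHT. Every 4OHT library was well above every EtOH library (2.31-fold, log2 fold change 1.21, SE 0.14, edgeR adjusted p = 3.65e-15). Ddit3 shares 10.9% of its exon bases with other gene models on both strands, among them another model named Ddit3. Chac1, a glutathione-degrading enzyme and target of the same arm, fell from 34.3, 33.4 and 37.0 CPM to 18.6, 21.9 and 20.9 CPM (1.69-fold lower, edgeR adjusted p = 1.52e-09). Atf4, the factor that PERK signalling brings to translation, had 271, 262 and 269 CPM in EtOH and 256, 224 and 244 CPM in 4OHT. It was called lower (1.11-fold, edgeR adjusted p = 0.0018), but not without the 4OHT library 2 (adjusted p = 0.063). Eif2s1, the translation factor that PERK phosphorylates, was 1.17-fold lower (edgeR adjusted p = 3.39e-07). Trib3, a pseudokinase gene induced by CHOP, was 1.18-fold lower (edgeR adjusted p = 0.00561), but was not called without the EtOH library 1 (0.198) nor by DESeq2 (0.0946). The other call was Ppp1r15b, 1.07-fold higher (edgeR adjusted p = 0.0425). With the replicate number as a block, 1 gene of the branch was called higher in place of 2, as also without any 1 of the EtOH libraries or without the 4OHT library 3. Eif2ak3, the PERK gene itself, had a log2 fold change of 0.21 (edgeR adjusted p = 0.098, and 0.0217 without the 4OHT library 1), and the phosphatase subunit gene Ppp1r15a of 0.21 (0.0594).

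On the way of ATF6 to its active form, Mbtps1, the site-1 protease that makes the first cut, rose from 184, 188 and 189 CPM to 228, 234 and 239 CPM. All 4OHT libraries were far above the EtOH libraries (1.254-fold, log2 fold change 0.33, edgeR adjusted p = 7.11e-11). Nfyb, a subunit of the factor NF-Y that binds the CCAAT of the ERSE, fell from 104, 98.5 and 109 CPM to 81.8, 74.4 and 86.6 CPM (1.28-fold lower, log2 fold change -0.35, edgeR adjusted p = 6.48e-07). Of the same list, Mbtps2, the protease gene of the next cut, and the other NF-Y subunit genes Nfya and Nfyc were not called. In the list of other stress transducers and the calcium pump, 4 of 15 tested genes were higher, among them Atp2a2, the ER calcium pump (1.17-fold, edgeR adjusted p = 6.18e-08), Tmbim6 (1.16-fold) and Creb3 (1.31-fold), the last with 20.8% of its exon bases overlapped on the opposite strand. The other gene called lower there was Rtcb, the ligase that joins the spliced Xbp1 mRNA (1.08-fold lower, edgeR adjusted p = 0.0367), and 1 gene was called lower there without the EtOH library 2, the 4OHT library 1 or the 4OHT library 3.

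Among receptors and shaping proteins of the ER, 4 of 14 genes were higher and 1 lower. Tex264, a receptor that brings ER fragments to autophagosomes, rose from 20.5, 16.7 and 25.5 CPM to 32.2, 40.1 and 31.8 CPM (1.67-fold, edgeR adjusted p = 1.07e-08). Reep5, which curves ER tubules, was 1.67-fold higher (edgeR adjusted p = 1.04e-09), Ckap4, a protein of ER sheets, 1.29-fold (5.51e-12) and Calcoco1 1.24-fold (0.000177). Rtn3 was 1.09-fold lower (edgeR adjusted p = 0.0374), and 0 genes were called lower without the EtOH library 1 or 3 or the 4OHT library 1 or 3. Among 28 genes of COPII vesicles and ER export 6 were higher and 1, Sec13, was lower, a call that was not made with the replicate number as a block, nor without the EtOH library 1 or 3 or the 4OHT library 2 or 3. Kdelr3, a receptor that returns escaped ER residents from the Golgi, rose from 20.3, 15.3 and 19.6 CPM to 30.7, 35.1 and 34.0 CPM (1.81-fold, edgeR adjusted p = 9.64e-11). Kdelr1, of the same family, was 1.30-fold higher (edgeR adjusted p = 9.67e-06), and the coat organiser Sec16a was 1.22-fold higher (4.69e-09). The coat subunit gene Sec24c was 1.17-fold higher (edgeR adjusted p = 1.94e-06).

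In the remaining ERAD genes outside the members, 7 of 25 were higher and 2 lower. The ligase gene Rnf185 was 1.38-fold higher (edgeR adjusted p = 4.33e-06), Erlin2 1.24-fold (0.000108) and Faf2, which recruits VCP to the membrane, 1.22-fold (0.00012). Ube2k, a ubiquitin-conjugating enzyme, was 1.21-fold lower (edgeR adjusted p = 3.23e-07) and Rnf139 1.18-fold lower (0.0395), and 1 was called lower without the EtOH library 1 or 3 or the 4OHT library 2 or 3. The other oxidoreductases and folding enzymes gave 7 higher and 7 lower of 37. The collagen hydroxylase gene Plod1 was 1.43-fold higher (edgeR adjusted p = 1.85e-08), while the PDI relative Txndc5 was 1.24-fold (8.88e-07), the prolyl isomerase Fkbp10 1.46-fold (3.6e-08) and the vitamin K reductase Vkorc1 1.72-fold lower (1.93e-05). The Vkorc1 value is less certain, since 47.7% of its exon bases overlap another gene model on the same strand, and so is that of Rnf139, with 26.2% shared, mostly on the opposite strand.

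For oligosaccharyltransferase and glycan trimming, 3 of 18 genes were higher and 5 lower. Magt1 was 1.41-fold higher (edgeR adjusted p = 2.55e-07), Man1b1, which trims mannose for ERAD, 1.20-fold (0.000177) and Ganab 1.07-fold. Ostc (1.247-fold), Mogs (1.23-fold), Ost4 (1.19-fold), Tmem258 (1.16-fold) and Lman1 (1.10-fold) were lower, with edgeR adjusted p-values between 8.34e-05 and 0.0327. Lman1 was counted in this list but encodes a cargo receptor of ER export. For Ost4, 53.2% of the exon bases overlap a gene on the opposite strand. The count of lower genes was 2 without the EtOH library 1 or the 4OHT library 1, and 3 without the 4OHT library 3. For the translocon, signal recognition and signal peptidase, Tram1 was higher (1.18-fold, edgeR adjusted p = 0.00136) and 3 of 21 were lower, and 2 were higher without the EtOH library 1. Those were the signal recognition particle genes Srp9 (edgeR adjusted p = 0.00541), Srp68 (0.00774) and Srp19 (0.0194). DESeq2 called none of these 3 (adjusted p = 0.063, 0.0834 and 0.14). Srp68 was lost without the EtOH library 2 (edgeR adjusted p = 0.0504) and the 4OHT library 2 (0.0598), and Srp19 without the EtOH library 1 (0.102), the EtOH library 3 (0.111), the 4OHT library 1 (0.0654) and the 4OHT library 3 (0.0521).

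**Figure D4:**
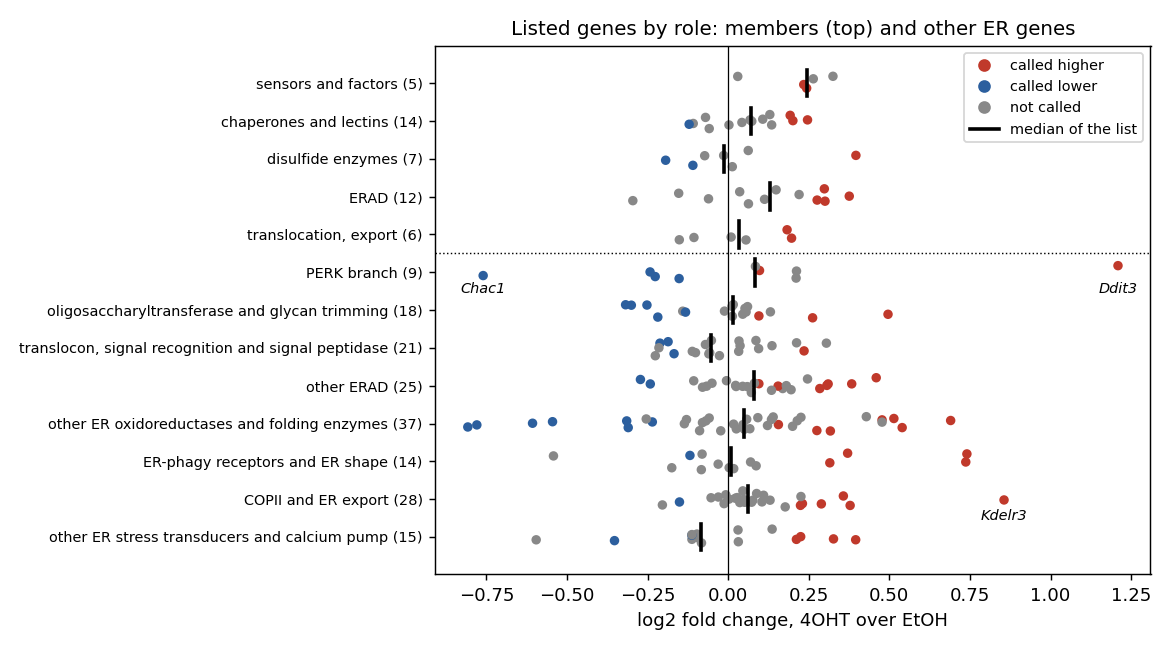
Log2 fold change, 4OHT over EtOH, of each tested gene (point) by role, with the 5 groups of members above the dotted line and the 8 other ER lists below it, the number of genes in brackets, red for called higher, blue for lower, grey for not called and a black bar at the median of each list. The members stay between -0.30 and 0.40, and the lists below reach from -0.81 to 1.21, with Ddit3 and Chac1 of the PERK branch and Kdelr3 named.

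Total counts ranged from 4092877 to 6427880 per library, so 3 counts in a library stand for 0.467 to 0.736 CPM, a limit for counting error only. Tfe3, whose counts may include those of the fusion, was 1070, 1032 and 1001 CPM in EtOH and 829, 833 and 825 CPM in 4OHT; it checks neither the treatment nor nuclear entry. The mESC markers summed to between 3555 and 3669 CPM in EtOH and between 3951 and 3976 CPM in 4OHT (4 of 7 higher, 1 lower). Of 13 markers of trophectoderm, the outer layer of the blastocyst, 9 were tested and 8 were higher, beside 21.4% of all tested genes. The list summed to between 507.9 and 528.6 CPM in EtOH and between 1065 and 1096 CPM in 4OHT. Most of that sum came from the keratin genes Krt8 (mean 219 CPM in EtOH, 488 in 4OHT) and Krt18 (160 and 370). Cdx2 (mean 2.25 and 1.54 CPM), Tfap2a, Plac1 and Elf5 were too low to be tested, with Elf5 at no more than 1 count in any library. Of 12 markers of primitive endoderm, 8 were tested, 3 were higher and 1 lower, beside 21.4% and 20.6% of all tested genes. Their sums were 668.6 to 696.8 CPM in EtOH and 831.7 to 853.7 CPM in 4OHT. The higher ones were the matrix protein genes Col4a1, Col4a2 and Sparc, and the lower one was Lamb1. Gata6, Sox17, Pdgfra and Foxa2 were too low to be tested, and Gata4 (mean 5.20 and 5.73 CPM) was not called. The 8 fibroblast markers summed to between 15.3 and 24.1 CPM over the 6 libraries, with Lum at 0. The part of these markers' cells in the changes of the ER genes was not tested, and in bulk RNA fewer cells of a type and less RNA per cell cannot be told apart.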

How the data were processed

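Gene counts were used as deposited, 1 column for each of 3 EtOH and 3 4OHT libraries of mESCs, grouped by the treatment in the labels. The submitters' processing notes name fastp, STAR, featureCounts and mm10, without roles or versions, and the deposited values are whole counts per gene with a gene length beside them. No annotation or strand setting is given in the sources used here. Reads of genes that overlap others are therefore less certain, and 14 of the 44 members share exon bases with another GENCODE gene model, at most 15.7% of them. Of the 27179 genes, 1314 had no symbol and stayed in the tests. Gene positions are those of RefSeq on GRCm38, the build called mm10.

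The whole table was fitted with edgeR 4.0.16 in R 4.3.3: filterByExpr (minimum count 10, minimum total 15), TMM factors, robust quasi-likelihood fit and test, and Benjamini-Hochberg adjustment over the 12345 tested genes, called at 0.05. A common dispersion of 0.00129 was estimated, a coefficient of variation of 3.59%. CPM uses the TMM-scaled library size, and fold changes are 4OHT over EtOH, with an SE and a 95% interval from the same test. The same code was tested on simulated data. Duplicate checks found no identical libraries. Tables and plots used Python 3.11.15, pandas 2.3.3 and matplotlib 3.10.9.

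Every member is named. Library values are given for all sensors, for up to 5 called members of each other role, and for Hspa5, Hsp90b1, Herpud1 and Dnajb9. Of each other ER list at most 4 called genes, those of smallest p, were named by rule. Eif2ak3, Atf4, Ddit3, Ppp1r15a and Trib3 were named in any case. Only some of these genes of the other lists are shown with library values. Further members shown with library values were chosen after their values were seen. The members and lists were chosen with earlier results of these data known. The motif search over all tested genes was added after the members' matches were seen. The 14 alternatives were scaling by upper quartile or by DESeq2 size factors, dropping the filter or asking for 1 CPM in at least 3 libraries, a block for the replicate number, DESeq2 1.42.0, limma-voom (limma 3.58.1), a threshold of 0.01 and leaving out each of the 6 libraries.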

Additional observations from a re-analysis of the deposited data

How the results depend on the processing

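Of the 15 calls among the members, 8 held in all 14 alternatives. Values that follow are counts of genes called, beside the main count in brackets, and the cause of a shift was not tested except where an alternative by its construction asks for more (a threshold of 0.01) or has fewer libraries. A count was taken as shifted when it differed from the main count by more than 1.5-fold, and smaller differences are mostly left out. With DESeq2, 1804 of all genes were higher (2643) and 1597 lower (2546). Of the members 7 were higher (12) and 2 lower (3). By role, 1 sensor (2), 1 ERAD gene (4) and 1 translocation gene (2) were higher and 1 disulfide gene lower (2). With DESeq2, other ER lists gave 1 PERK branch (2), 4 other ERAD (7) and 3 oxidoreductase genes (7) higher, and 2 glycosylation (5), 0 translocon (3), 1 other ERAD (2), 0 ER-phagy (1), 0 COPII (1) and 1 transducer gene (2) lower. With upper quartile factors, 6 members were lower (3), namely 2 chaperones (1), 1 ERAD gene (0), 1 translocation gene (0) and 2 disulfide genes (2), while 1 PERK branch (2) and 4 other ERAD genes (7) were higher. That scaling moved the median of all genes to -0.0361. With DESeq2 size factors, 1 ERAD gene was lower (0) and 1 PERK branch gene higher (2). With no filter, 1 PERK branch gene was higher (2), and 1 disulfide (2), 1 other ERAD (2), 1 transducer (2), 0 ER-phagy (1) and 0 COPII genes (1) were lower. COPII also had 0 lower (1) with the 1 CPM filter and with limma-voom. At a threshold of 0.01, 9 members were higher (12) and 2 lower (3). Higher by list were 2 ERAD genes (4), 1 translocation gene (2), 1 PERK branch gene (2), 4 other ERAD (7) and 4 oxidoreductase genes (7). Lower by list were 1 disulfide (2), 3 glycosylation (5), 1 other ERAD (2), 0 ER-phagy (1), 0 COPII (1) and 1 transducer gene (2).

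Same-numbered libraries of the groups did not deviate together (correlations over genes of -0.0226, -0.0161 and -0.017). Those of different number gave 0.00404 to 0.0127. The deviations include counting error, so these values cannot tell whether same-numbered libraries shared a culture or day. With the replicate number as a block, 44 of 44 members kept their call, 1 PERK branch gene was higher (2) and 0 COPII genes were lower (1).

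Leaving out each library in turn gave 2306 to 2544 of all genes higher and 2129 to 2407 lower, and 9 to 12 members higher and 2 to 5 lower. By role the ranges were 1 to 2 sensors higher, 3 to 3 chaperones higher and 1 to 1 lower, 1 to 1 disulfide genes higher and 1 to 2 lower, 2 to 4 ERAD genes higher and 0 to 1 lower, and 1 to 2 translocation genes higher and 0 to 1 lower. In the other lists they were 1 to 2 PERK branch genes higher and 3 to 4 lower, 2 to 3 glycosylation genes higher and 2 to 5 lower, 1 to 2 translocon genes higher and 2 to 2 lower, 5 to 6 other ERAD genes higher and 1 to 2 lower, and 5 to 8 oxidoreductase genes higher and 6 to 7 lower. ER-phagy gave 4 to 4 higher and 0 to 1 lower, COPII 5 to 6 and 0 to 1, and the transducers 3 to 4 and 1 to 3.

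The sign of the log2 fold change turned for 12 members, none of them called. With upper quartile factors Atf6b became -0.004, Creld2 -0.0313, Pdia3 -0.0209 and Sec63 -0.0246, and Creld2 became -0.001 with DESeq2 size factors and -0.0021 with limma-voom. Leaving out each library gave ranges of -0.0175 to 0.0706 for Atf6b, -0.0136 to 0.1855 for Sdf2l1, -0.0308 to 0.142 for Dnajb9, -0.059 to 0.0576 for Creld2, -0.025 to 0.1465 for Pdia5, -0.0068 to 0.0281 for Pdia3, -0.048 to 0.0277 for Pdia6, -0.2345 to 0.2106 for Ero1b, -0.077 to 0.1355 for Erlec1, -0.0471 to 0.1245 for Derl2, -0.4213 to 0.186 for Derl3 and -0.0167 to 0.0513 for Sec63. The members with the lowest CPM in EtOH, Ero1b, Creb3l2 and Derl3, have 95% intervals that reach past 1.5-fold on 1 side, downward for Ero1b and Derl3 and upward for Creb3l2.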
